A study of Rattus norvegicus with 30 samples.

Results

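The genes described here encode the proteins that license, start and carry out the copying of DNA in S phase, supply its nucleotides and rebuild chromatin behind the fork. They were chosen by name: 47 genes in 8 roles, each represented by its brightest probe set (the mean over all 30 arrays) among those that carry its symbol and no other. Of the 47 genes 44 were measured, out of 14217 genes with such a probe set. Among the 44 genes 35 had 1 probe set and 9 had several. Cdc6, Gins2 and Rrm2 were not analysed here, since no probe set carried their symbol alone. Treated animals were female DA rats (an inbred strain) of 10 weeks that received 1 intraperitoneal dose of 200 mg/kg irinotecan under light halothane anaesthesia and were killed 1, 6, 24 or 72 h later. The control animals were DA rats of the same sex and age, killed at 0 h without irinotecan. The sources used here do not say whether they were anaesthetised or sham-injected. Stomach, jejunum and colon were taken whole, RNA of 3 rats was pooled, so that 2 pools stood for every tissue at every time (15 groups), each pool on 1 array that reports a log2 signal per probe set. The p-values below therefore measure the spread between pools and not between single rats. The same 6 rats per time gave all 3 tissues, so pools of different tissues at 1 time share animals, and which rats went into which pool is not stated. The fits between tissues treat those pools as independent.

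A cell copies its DNA in ordered steps. The origin recognition complex, with Cdc6 and Cdt1, loads the MCM helicase onto DNA, Cdc45 and the GINS complex then join it to open the helix, primase and polymerase alpha lay down primers, and polymerases delta and epsilon extend them on the Pcna ring that replication factor C loads. Most of these genes are transcribed at the G1/S boundary by E2F factors once cyclin E and its kinase release them from the retinoblastoma protein. In the gut the cells that copy DNA lie mainly in the crypts of the intestine and in the isthmus of the gastric glands. Irinotecan is converted to a compound that traps topoisomerase I on DNA, where passing replication forks collide with it. RNA of whole tissue was measured, so fewer cells in S phase and less RNA per cell cannot be told apart, here and in each result that follows.

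The arrays carried the tissues their labels name. The median of 6 stomach gland markers was 12.74 to 13.53 on stomach arrays and 6.51 to 6.88 on jejunum arrays, the median of 4 enterocyte markers was 13.12 to 13.44 in jejunum and 6.67 to 8.04 in stomach, and the median of 3 colonocyte markers was 11.99 to 12.69 in colon and 6.82 to 7.70 in jejunum. Array medians lay between 6.965 and 7.055, and the paired arrays of a group correlated at 0.9469 to 0.9959 over all probe sets. Some arrays stood apart. Replicate 1 of the 24 h colon carried stomach transcripts, with Pgc at 13.67 and Atp4a at 9.41 against 6.96 and 6.64 on replicate 2. The highest stomach gland marker on that replicate 2 was 9.89. Pgc was also 9.76 on replicate 1 of the 72 h colon and 8.45 on replicate 1 of the 0 h colon. Replicate 2 of the 24 h colon was high in small intestinal transcripts, with an enterocyte median of 9.48 and Apoa4 at 10.31, against 7.70 and 7.10 on replicate 1. Replicate 2 of the 0 h colon was also high in them (8.84, with Apoa4 at 8.71), while the other colon arrays had enterocyte medians of 7.09 to 7.76. The median of 9 pancreatic acinar genes was 13.42 on replicate 1 of the 72 h stomach, 12.37 on replicate 2 of the 72 h colon and 9.49 on replicate 1 of the 6 h colon, against 5.99 to 8.55 on the other arrays. The median of 5 squamous epithelium markers varied between stomach arrays. On replicates 1 and 2 it was 7.26 and 9.87 at 0 h, 11.04 and 8.49 at 24 h, and 7.82 and 11.24 at 72 h. The GAPDH control signal was higher at the 3' end than at the 5' end by 0.82 on replicate 1 of the 24 h jejunum and by 0.56 on replicate 1 of the 24 h stomach, a measure of RNA integrity. The part these features play in the replication genes' values was not tested, and counts without these arrays are given beside some of the results they touch.

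Of the 44 genes 40 had a promoter in the RefSeq table (rat build GRCr8; Orc1, Mcm4, Ccne2 and E2f1 had no entry), read as 250 bases before to 50 after the annotated start. The E2F words searched were TTCCCGC as the first and TTGGCGC as the next, together with the variants TTCGCGC as well as TTGCCGC, on both strands, with overlapping matches counted separately. At least 1 word stood in 27 of the 40 promoters, or 67.5%, against 10.0% of 27457 rat promoters of the same length. The CCAAT box stood in 57.5% of the 40, against 37.7% of all promoters, and the CHR word TTTGAA in 10.0%, against 18.1%. The promoters compared were not matched for base composition, and the E2F words are rich in G and C. The part of base composition in these shares was not tested. Of the 53 E2F words 27 began within the 100 bases before the start. These 6 promoters are shown, 250 bases before the start and 5' to 3' on the gene's strand, because the values below turn on these genes, 5 of them with several words and 1 with none. They were chosen after the genes' values were seen. Capitals mark the E2F words, including matches on the opposite strand.
Mcm5: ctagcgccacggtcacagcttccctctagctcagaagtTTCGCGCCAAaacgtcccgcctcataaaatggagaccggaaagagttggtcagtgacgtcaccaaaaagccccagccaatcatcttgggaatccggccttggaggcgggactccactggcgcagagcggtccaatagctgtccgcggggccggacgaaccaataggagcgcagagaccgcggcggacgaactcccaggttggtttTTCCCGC
Mcm6: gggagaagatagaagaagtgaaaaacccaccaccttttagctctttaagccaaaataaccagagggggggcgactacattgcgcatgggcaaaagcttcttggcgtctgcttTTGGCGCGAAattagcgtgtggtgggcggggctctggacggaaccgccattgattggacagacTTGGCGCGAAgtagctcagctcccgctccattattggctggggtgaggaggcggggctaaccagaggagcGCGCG
Mcm7: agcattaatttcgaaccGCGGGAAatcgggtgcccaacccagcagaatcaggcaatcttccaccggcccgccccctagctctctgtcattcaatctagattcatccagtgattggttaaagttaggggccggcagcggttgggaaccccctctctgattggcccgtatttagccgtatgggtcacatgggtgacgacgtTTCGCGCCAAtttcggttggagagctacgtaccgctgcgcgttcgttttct
Pola1: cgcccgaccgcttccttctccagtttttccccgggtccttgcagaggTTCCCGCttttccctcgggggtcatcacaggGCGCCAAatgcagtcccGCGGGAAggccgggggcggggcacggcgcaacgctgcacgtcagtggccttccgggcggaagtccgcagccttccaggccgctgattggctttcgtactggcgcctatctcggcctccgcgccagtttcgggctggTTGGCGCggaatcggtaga
Pclaf: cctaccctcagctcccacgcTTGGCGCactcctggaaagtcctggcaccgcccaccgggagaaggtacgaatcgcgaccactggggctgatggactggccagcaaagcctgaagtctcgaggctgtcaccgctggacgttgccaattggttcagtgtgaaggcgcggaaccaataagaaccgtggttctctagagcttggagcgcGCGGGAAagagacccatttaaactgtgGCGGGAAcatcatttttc
Dut: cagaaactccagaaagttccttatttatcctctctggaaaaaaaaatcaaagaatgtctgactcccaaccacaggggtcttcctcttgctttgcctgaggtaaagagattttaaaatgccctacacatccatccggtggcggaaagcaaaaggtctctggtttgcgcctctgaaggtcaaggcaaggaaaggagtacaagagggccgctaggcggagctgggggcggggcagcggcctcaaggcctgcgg
The intervals and strands are chr19:13488563-13488812 (plus strand) for Mcm5, chr13:42404353-42404602 (minus strand) for Mcm6, chr12:22163179-22163428 (minus strand) for Mcm7, chrX:62342356-62342605 (minus strand) for Pola1, chr8:75315467-75315716 (plus strand) for Pclaf and chr3:132952180-132952429 (plus strand) for Dut. Mcm6 holds 5 words, Pola1 holds 4, and Mcm5, Mcm7 and Pclaf hold 3 each before the start. Overlapping words on opposite strands make the longer capital runs in Mcm5, Mcm6 and Mcm7, and the last word of Mcm6, which begins 5 bases before the start, runs past the end of the stretch shown. Dut, which encodes the enzyme that clears dUTP, holds none in this window. A match describes letters and not a bound site.

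**Figure D1:**
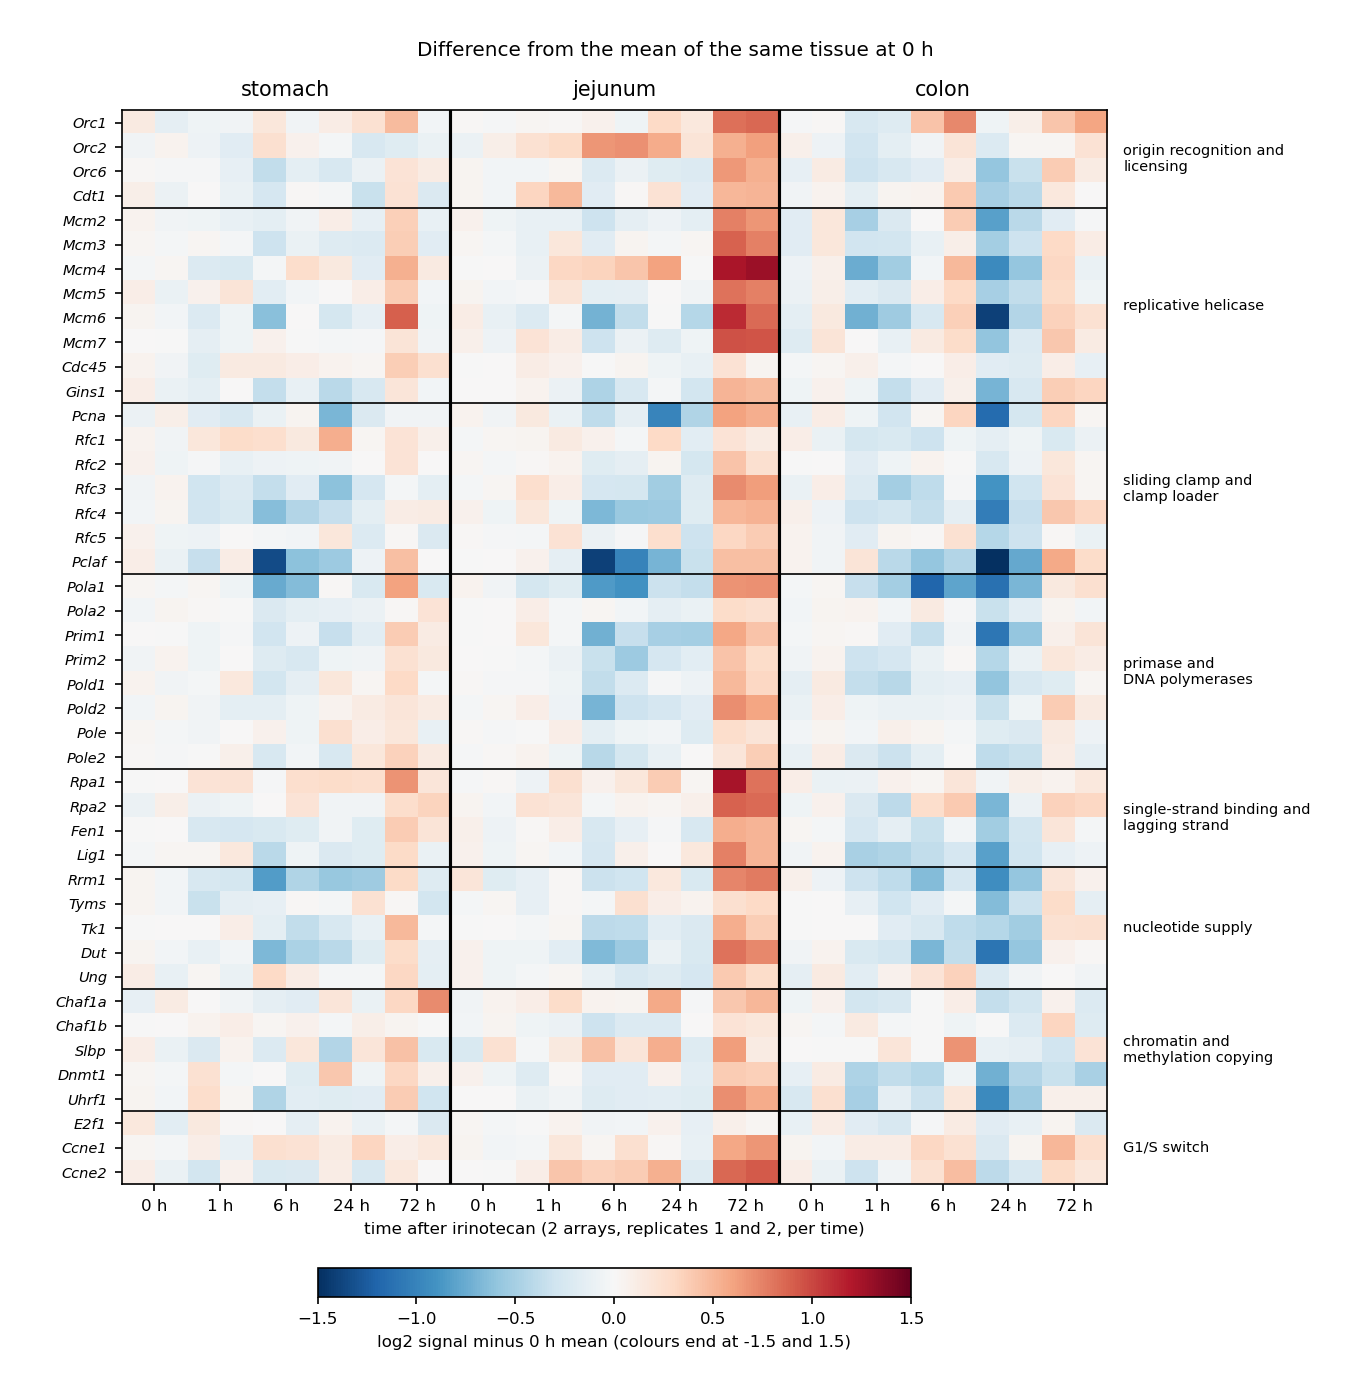
Each row is 1 of the 44 replication genes, grouped by role, and each column 1 array, as the log2 signal minus the 0 h mean of the same tissue (blue lower, red higher, colours ending at -1.5 and 1.5). Red runs through nearly all rows of both 72 h jejunum columns, and blue is deepest in the first of the paired 24 h colon columns.

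In the jejunum 43 of the 44 genes had their highest mean at 72 h, against 24.9% of all probe sets, and 26 had their lowest at 6 h, against 16.0%. In the stomach 31 had their highest mean at 72 h, against 17.7%, and 22 their lowest at 6 h, against 15.8%. In the colon 37 of the 44 had their lowest mean at 24 h, against 18.3% of all probe sets. The highest colon mean fell at 72 h in 24 genes, against 23% of all probe sets, and at 6 h in 15, against 15.6%. Taken per array, the median difference of the 44 genes from the 0 h mean of their tissue reached 0.57 and 0.51 on the 72 h jejunum arrays and was lowest at -0.50 and -0.27 on the 24 h colon arrays, in log2 units. The same median over all probe sets stayed between -0.06 and 0.04 on every array of the 3 tissues. The 72 h stomach arrays differed from each other. Replicate 1, the array rich in acinar transcripts, stood at 0.28. Replicate 2, the array highest in squamous transcripts, stood at -0.04.

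**Figure D2:**
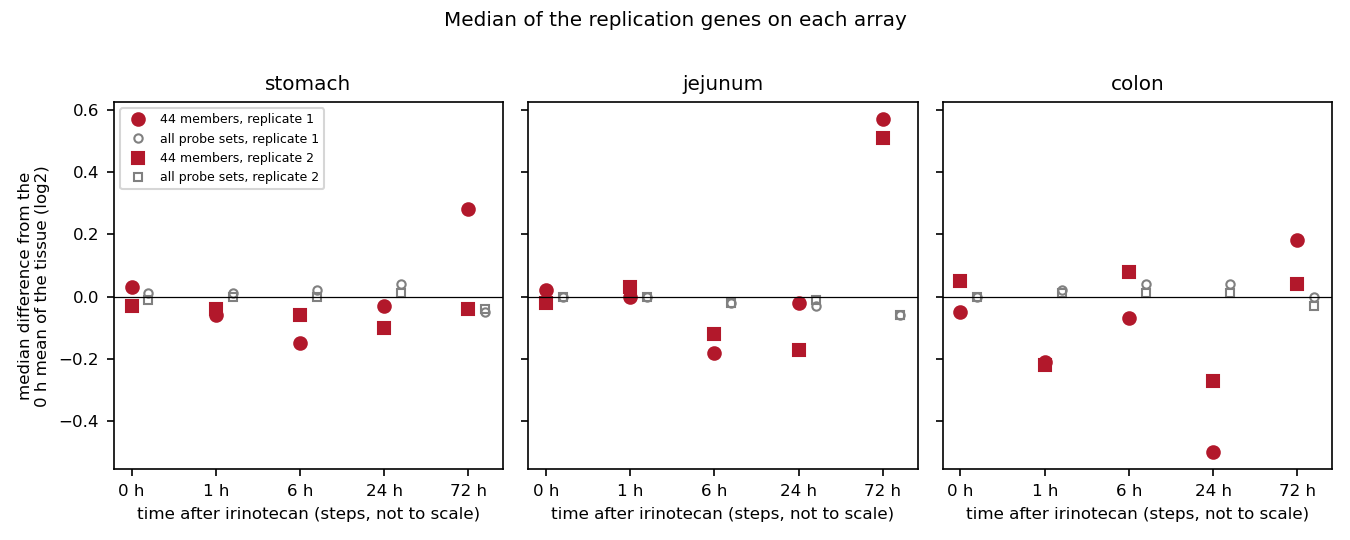
Filled symbols give the median log2 difference of the 44 genes from the 0 h mean of the tissue on each array, and open grey symbols the same over all probe sets, with circles for replicate 1 and squares for replicate 2. The 72 h jejunum arrays sit at 0.57 and 0.51 and the 24 h colon arrays at -0.50 and -0.27, while the open symbols stay near 0.

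At 6 h after irinotecan the jejunum carried less mRNA for several parts of the priming and clamp machinery, and more for 1 subunit of the origin recognition complex. With limma and adjustment over 31042 probe sets at 0.05 (passing this is called the test below), 6 of 44 genes fell, or 13.6%, against 1.19% of all probe sets that fell, and 1 rose, against 2.30%. Pola1 encodes the catalytic subunit of polymerase alpha. It was 6.63 and 6.58 in the 6 h jejunum, against 7.54 and 7.43 at 0 h. All values at 6 h lay below both at 0 h, and the 1.84-fold lower level passed (log2 difference -0.88 ± 0.077, standard error, adjusted p = 0.00235). Pclaf, a protein that binds the Pcna ring, was 8.85 and 9.25 at 6 h, against 10.25 and 10.26 at 0 h. It had the largest fall among the 44 genes, 2.31-fold (-1.21 ± 0.15, adjusted p = 0.00695), and its groups did not overlap. Dut was 9.16 and 9.28 at 6 h, against 9.88 and 9.76 at 0 h, a clear gap between the groups (-0.60 ± 0.092, adjusted p = 0.0140). Another, dimmer probe set of Dut differed by 0.02 here.

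The clamp loader subunit Rfc4 was 8.03 and 8.14 in the 6 h jejunum, against 8.76 and 8.64 at 0 h (-0.62 ± 0.13, adjusted p = 0.0359). Prim2, the large subunit of primase, was 6.72 and 6.50 at 6 h, against 7.06 and 7.04 at 0 h (-0.44 ± 0.097, adjusted p = 0.0429). Tk1, the thymidine kinase of S phase, was 7.70 and 7.71 at 6 h, against 8.08 and 8.10 at 0 h (-0.38 ± 0.085, adjusted p = 0.0436). In each of Rfc4, Prim2 and Tk1 both treated arrays lay below both controls. Orc2, a subunit of the origin recognition complex, was 8.56 and 8.58 at 6 h, against 7.81 and 7.99 at 0 h. It was 1.59-fold higher with no overlap (0.67 ± 0.12, adjusted p = 0.0237). Its partners Orc1 (0.00) and Orc6 (-0.15) did not pass.

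By role, 2 of the 8 primase and polymerase genes fell at 6 h (median -0.39), 2 of the 7 clamp genes (median -0.25) and 2 of the 5 nucleotide supply genes (median -0.31). None of the 8 helicase genes passed, with Mcm6 at -0.54 (adjusted p = 0.128) and Mcm4 at 0.37 (adjusted p = 0.306) at its ends. Both arrays lay below both controls in 27 of the 44 genes, while 33.3% of all probe sets did so. The median over the 44 genes was -0.17, against -0.02 over all probe sets. All 3 crypt base markers were lower at 6 h, 1 of them called, with array medians of 7.01 and 7.10 at 6 h, against 7.42 and 7.40 at 0 h. Lgr5, the intestinal stem cell receptor, was 6.45 and 6.44 at 6 h, against 6.97 and 7.16 at 0 h. The 6 macrophage markers had a median change of -0.47 (1 positive) and the 6 T cell markers of -0.22 (0 positive), none called. The part of these shifts in the replication genes' values was not tested. These calls were sensitive to single arrays. None of the 7 genes called kept its call in every fit that left out 1 of the compared arrays. Leaving out any 1 of the 4 arrays compared left 1 call each time, and leaving out the 24 h jejunum array with the wide GAPDH gap, which serves only the estimate of spread here, gave 13.

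At 24 h the jejunum showed no call among the 44 genes in either direction with limma, against 0.409% of all probe sets, and 10 genes had an unadjusted p under 0.05, or 22.7% against 16.0% of all probe sets. Pola1 was 7.16 and 7.13, against 7.54 and 7.43 at 0 h (-0.34, adjusted p = 0.0996). Pcna, the sliding clamp itself, was 10.22 and 10.75, against 11.26 and 11.15 at 0 h (-0.72, adjusted p = 0.101). Prim1, the catalytic subunit of primase, was 8.17 and 8.16, against 8.66 and 8.67 at 0 h (-0.50, adjusted p = 0.123). The groups of all 3 genes were apart, and the arrays of Pcna spread most. The Pcna value of 10.22 was that of replicate 1, the array with the GAPDH gap of 0.82. The smooth muscle median was 11.23 on replicate 1 and 10.53 on replicate 2, against 10.11 and 10.26 at 0 h. The part of these features was not tested. The count was 10 without replicate 2 of the 24 h group and 0 without any of the other 3 arrays. At 1 h there was also no call, against 0.0354% of all probe sets, with 3 genes at an unadjusted p under 0.05, or 6.82% against 4.73%. They were Cdt1 (8.09 and 8.25, against 7.81 and 7.72 at 0 h), Pola1 (7.22 and 7.30, against 7.54 and 7.43 at 0 h) and Rpa2 (7.55 and 7.52, against 7.38 and 7.29 at 0 h), none with an adjusted p under 0.862.

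**Figure D3:**
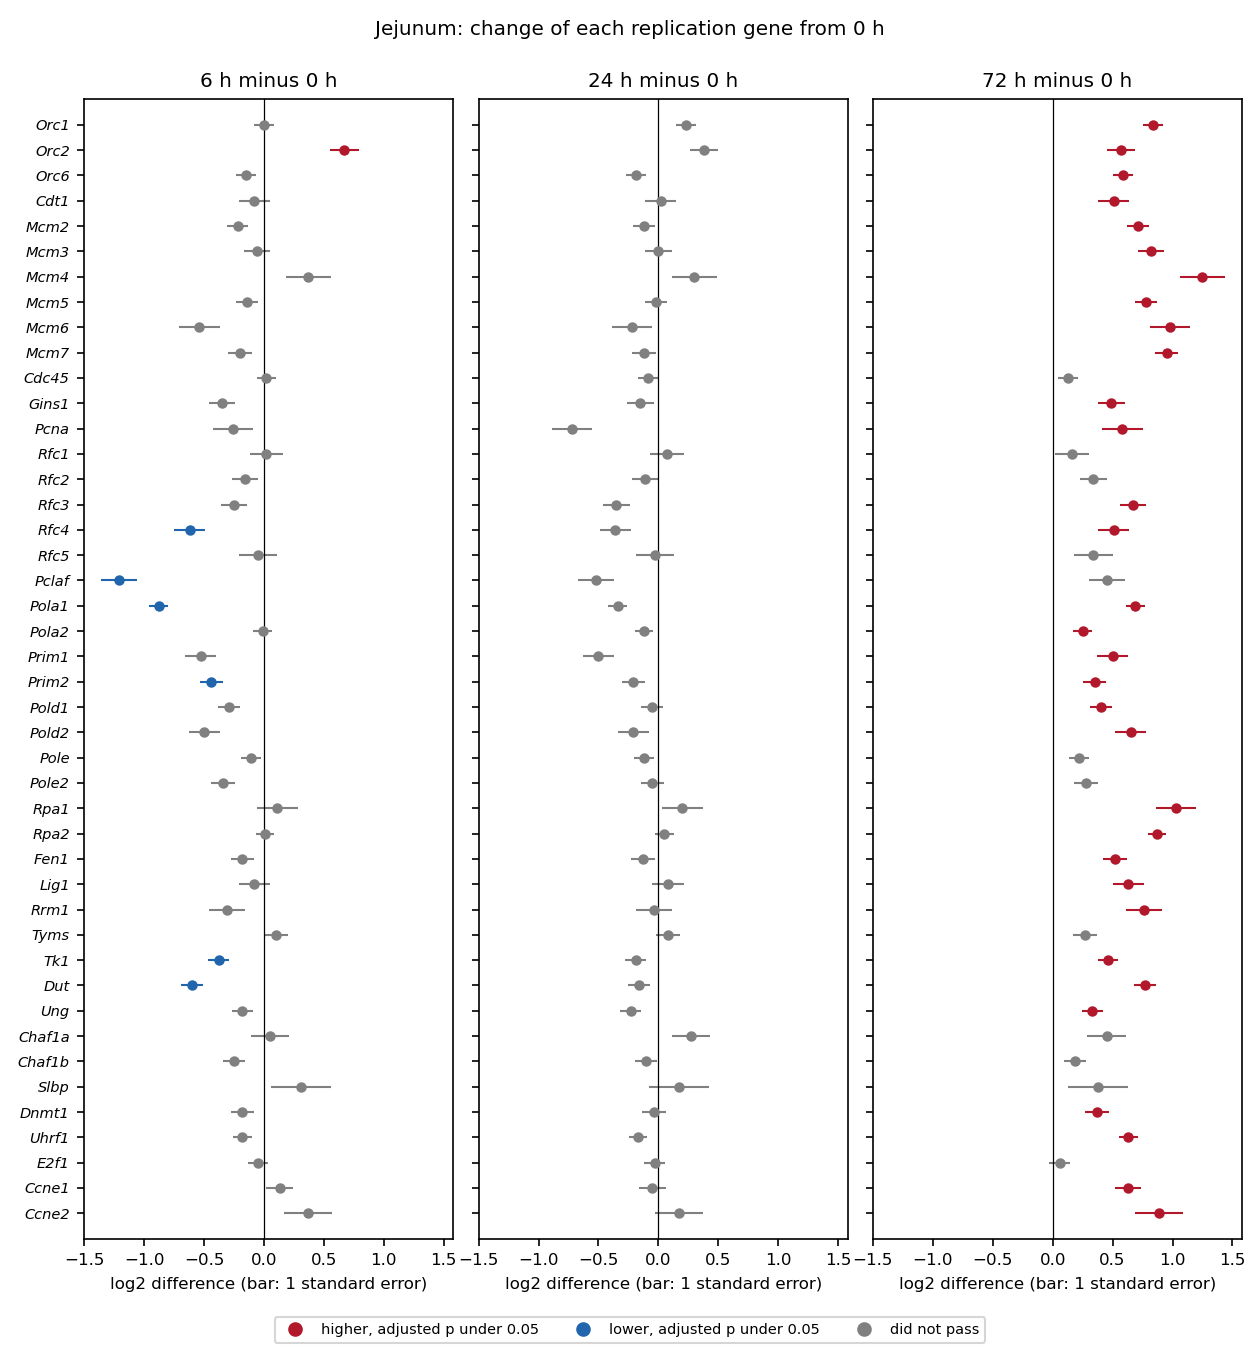
Points give the log2 difference of each gene from 0 h in the jejunum at 6, 24 and 72 h and bars 1 standard error, coloured where limma's adjusted p was under 0.05 (red higher, blue lower). At 6 h 6 genes are blue and 1 is red, at 24 h none is coloured, and at 72 h 32 are red.

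At 72 h after irinotecan the jejunum carried more mRNA for genes of each of the 8 roles. All 44 genes lay above 0 h on average and 32 passed the test, or 72.7%, against 11.9% of all probe sets that rose. None fell, against 12.0% of all probe sets. The median of the 44 genes was 0.52 on the log2 scale, against -0.07 over all probe sets. Both 72 h arrays lay above both 0 h arrays in 42 genes, while 29.7% of all probe sets did so, and the 2 exceptions were Slbp and E2f1. On each of the 72 h arrays taken alone all 44 genes lay above the 0 h mean.

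All 4 licensing genes rose. Orc1, an ATP-binding subunit of the origin recognition complex, was 6.86 and 6.89 in the 72 h jejunum, against 6.05 and 6.01 at 0 h. The arrays of each group differed by far less than the gap between the groups (0.84 ± 0.083, adjusted p = 0.000716). Orc6 (0.59), Orc2 (0.57) and Cdt1 (0.51), the factor that brings the helicase to origins, also rose. Of the 8 helicase genes 7 rose, with a median of 0.80. Mcm7 was 10.28 and 10.27 at 72 h, against 9.41 and 9.25 at 0 h (0.95 ± 0.10, adjusted p = 0.000932). Mcm5 was 8.96 and 8.90, against 8.19 and 8.11 at 0 h (0.78 ± 0.090, adjusted p = 0.00117). Mcm2 was 9.02 and 8.93, against 8.33 and 8.21 at 0 h (0.71 ± 0.090, adjusted p = 0.00174). Treated and control arrays were well apart in all 3 of these MCM subunits. Mcm4 had the largest rise of all 44 genes, 2.38-fold (1.25 ± 0.19, adjusted p = 0.00312), and Mcm6 (0.98), Mcm3 (0.82) and the GINS subunit Gins1 (0.49) also rose. Cdc45, which joins the MCM ring when origins fire, did not pass (0.13, adjusted p = 0.256). Its 3 other probe sets gave 0.02, -0.14 and 0.48.

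All 4 genes of single-strand binding and lagging strand processing rose. Rpa2, a subunit of the single-strand binding complex, was 8.22 and 8.18 in the 72 h jejunum, against 7.38 and 7.29 at 0 h. It had the smallest adjusted p of the 44 genes (0.87 ± 0.077, adjusted p = 0.000584), and its groups were far apart. Rpa1, its large partner, was 2.04-fold higher (1.03), with 9.14 on replicate 1 and 8.72 on replicate 2. The ligase Lig1 (0.63) and the flap nuclease Fen1 (0.52) passed too. Among the 8 primase and polymerase genes 6 rose. Pola1 was 8.16 and 8.17 at 72 h, against 7.54 and 7.43 at 0 h (0.69 ± 0.077, adjusted p = 0.00106). The gene lowest of this role at 6 h lay above both control arrays at 72 h, and both comparisons share those 0 h arrays. The delta subunits Pold2 (0.65) and Pold1 (0.40), the primase subunits Prim1 (0.50) and Prim2 (0.35), and Pola2 (0.25) rose. The epsilon subunits Pole2 (0.28, adjusted p = 0.0726) and Pole (0.22, adjusted p = 0.0869) did not pass.

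Of the 7 clamp genes 3 rose. Rfc3 (0.67), Pcna (0.58) and Rfc4 (0.51) rose, while Pclaf (0.45, adjusted p = 0.0584), Rfc2 (0.34, adjusted p = 0.0573), Rfc5 (0.34, adjusted p = 0.148) and Rfc1 (0.16, adjusted p = 0.391) did not pass. Of the 5 nucleotide supply genes 4 rose. Dut was 10.63 and 10.54, against 9.88 and 9.76 at 0 h (0.77 ± 0.092, adjusted p = 0.00142). Rrm1, the large subunit of ribonucleotide reductase, was higher by 0.76, Tk1 by 0.46 and the uracil glycosylase Ung by 0.33, and the thymidylate synthase Tyms stood at 0.27 (adjusted p = 0.0796). Other probe sets of these genes did not all move alike. A second probe set of Tk1 differed by 0.76 and the third, dimmer one by -0.26, and the second, dimmer one of Dut by -0.18.

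Of the 5 genes of chromatin and methylation copying, 2 rose. Uhrf1, which brings the maintenance methyltransferase to newly copied DNA, was 7.02 and 6.88 in the 72 h jejunum, against 6.32 and 6.32 at 0 h (0.63 ± 0.078, adjusted p = 0.00166). No treated array came near the controls. Dnmt1, that methyltransferase, rose by 0.37. The chromatin assembly subunits Chaf1a (0.45) and Chaf1b (0.19) and the histone mRNA binder Slbp (0.38) did not pass. In the G1/S switch, cyclins E1 and E2 rose, Ccne1 by 0.63 and Ccne2 by 0.89, whereas a dimmer probe set of Ccne2 differed by -0.29. E2f1 was 7.49 and 7.45 at 72 h, against 7.45 and 7.38 at 0 h, and stayed within the spread of its arrays (0.06, adjusted p = 0.656). Promoters with an E2F word were found in 18 of the 29 genes with a promoter entry that rose and in 9 of the 11 that did not pass.

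The calls at 72 h fell to 19 and 14 without replicate 1 or 2 of the 0 h jejunum, and to 13 and 20 without replicate 1 or 2 of the 72 h jejunum. Genes called whichever array was left out numbered 12: Orc1, Orc6, Mcm2, Mcm3, Mcm4, Mcm5, Mcm7, Pola1, Rpa1, Rpa2, Dut and Uhrf1. Other cell markers moved in the same comparison, in both directions. The 6 pan-epithelial markers had a median change of 0.05, with 1 called higher and 1 lower, and their array medians were 12.36 and 12.40 at 72 h, against 12.58 and 12.48 at 0 h. The 6 smooth muscle markers lay higher by a median of 0.75, 2 of them called, with array medians of 11.00 and 11.24 against 10.11 and 10.26 at 0 h. The 6 macrophage markers lay higher by 0.73, 2 of them called, with array medians of 7.86 and 7.73 against 7.13 and 7.20 at 0 h. The 3 crypt base markers measured had a median of 0.23, none called. The 3 colonocyte markers were all lower, by a median of -0.70 with 2 called (array medians of 6.82 and 6.90, against 7.68 and 7.44 at 0 h), and 3 of the 4 enterocyte markers were lower, by a median of -0.14 with 1 called (13.17 and 13.12, against 13.33 and 13.42 at 0 h). The part of these shifts in the replication genes' rise was not tested.

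Against 24 h more of the jejunum's replication genes passed at 72 h. Of the 44 genes 34 rose, or 77.3%, against 8.77% of all probe sets, and none fell, against 4.15%. The median was 0.65, against -0.06 over all probe sets. Pola1 was 8.16 and 8.17 at 72 h, against 7.16 and 7.13 at 24 h (1.02 ± 0.077, adjusted p = 0.00092). Rfc3, a small clamp loader subunit, was 8.53 and 8.45 at 72 h, against 7.30 and 7.63 at 24 h (1.02 ± 0.11, adjusted p = 0.00161). Orc6 was 8.10 and 7.99 at 72 h, against 7.27 and 7.25 at 24 h (0.79 ± 0.083, adjusted p = 0.00141). In these 3 genes the pairs of arrays were far from meeting. The largest difference was that of Pcna, 2.46-fold (1.30, adjusted p = 0.00254), and Pclaf, which missed the test against 0 h, was 1.96-fold higher than at 24 h (0.97, adjusted p = 0.00517). In this comparison the 6 macrophage markers were higher by a median of 0.80 (3 called), with array medians of 7.86 and 7.73 at 72 h, against 6.83 and 7.32 at 24 h. The 3 colonocyte markers were lower (-0.62, 2 called), and of the 6 epithelial markers 2 were called higher and 1 lower. Smooth muscle markers were higher by 0.31 (5 of 6 positive, 1 called). Replicate 1 of the 24 h group is the array with the GAPDH gap of 0.82. The part of these features was not tested. Without replicate 1 of the 72 h group 19 genes were called, and 25 to 37 without any other array.

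In the colon the low point came at 24 h. Of the 44 genes 42 lay below 0 h on average and 3 passed the test, or 6.82%, against 0.854% of all probe sets that fell. None rose, against 0.290% of all probe sets, and 30 genes had an unadjusted p under 0.05, all lower, or 68.2% against 16.7% of all probe sets in either direction. The median was -0.40, against 0.03 over all probe sets. Pola1 was 6.65 and 7.08 in the 24 h colon, against 7.74 and 7.79 at 0 h (-0.90 ± 0.16, adjusted p = 0.0307). Dut was 9.18 and 9.69, against 10.22 and 10.32 at 0 h (-0.84 ± 0.16, adjusted p = 0.0401). Prim1 was 7.89 and 8.39, against 8.94 and 9.01 at 0 h (-0.83 ± 0.16, adjusted p = 0.0436). Both treated arrays lay below both controls in all 3 genes, and in 35 of the 44, while 21.4% of all probe sets did so. Pclaf, named here after its values were seen, had the largest difference but missed the test, with 7.67 and 9.08 against 9.90 and 9.79 (-1.47 ± 0.36, adjusted p = 0.0866).

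Replicate 1 of the 24 h colon, the colon array highest in stomach transcripts, was the higher of the pair in 5 of the 44 genes. None of the 44 lay above the 0 h mean on it, against 4 on replicate 2. Without replicate 1 no gene was called, although Pola1 still differed by -0.68, Prim1 by -0.58 and Dut by -0.58. Without replicate 2 the count was 11, and it was 0 without either 0 h array. The 6 stomach gland markers lay higher than at 0 h by a median of 1.20 (array medians of 9.05 and 6.64 at 24 h, against 6.72 and 6.47 at 0 h), and the 4 enterocyte markers by 0.87 (7.70 and 9.48 at 24 h, against 7.09 and 8.84 at 0 h). The 6 smooth muscle markers were all higher, by a median of 0.29 with 1 called. Their array medians were 12.75 and 12.60 at 24 h, against 12.18 and 12.08 at 0 h. The 3 colonocyte markers were all higher (0.76) and the 3 crypt base markers all lower (-0.37), none called. The part of these marker shifts in the fall was not tested. By role the clamp genes lay lowest (median -0.59), then nucleotide supply (-0.49) and the helicase (-0.45), where Mcm6 (-0.91, adjusted p = 0.144) and Mcm4 (-0.77, adjusted p = 0.105) did not pass. Rpa1 (0.01) and Orc1 (0.01) were the 2 genes not below 0 h.

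At 6 h after irinotecan 1 of the 44 colon genes fell, or 2.27%, against 0.986% of all probe sets, and none rose, against 0.200%. Pola1 was 6.57 and 6.97 at 6 h, against 7.74 and 7.79 at 0 h, a 2.00-fold lower level with no overlap (-1.0 ± 0.16, adjusted p = 0.0181). The median over the 44 genes was 0.00, with 22 higher and 22 lower. The call on Pola1 was lost without the acinar-rich array, replicate 1 of 6 h, and without either 0 h array, and held without replicate 2 of 6 h. In the direction opposite to Pola1 stood Orc1 at 0.57 (adjusted p = 0.0598) and cyclin Ccne2 at 0.35 (adjusted p = 0.291). At 1 h no colon gene passed, against 0% of all probe sets, while 38 of 44 lay below 0 h and 9 had an unadjusted p under 0.05, or 20.5% against 14.9%. The smallest p were those of Mcm4 (7.24 and 7.46, against 7.91 and 8.06 at 0 h), Lig1 (8.19 and 8.23, against 8.63 and 8.73 at 0 h) and Dnmt1 (8.11 and 8.21, against 8.45 and 8.70 at 0 h).

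**Figure D4:**
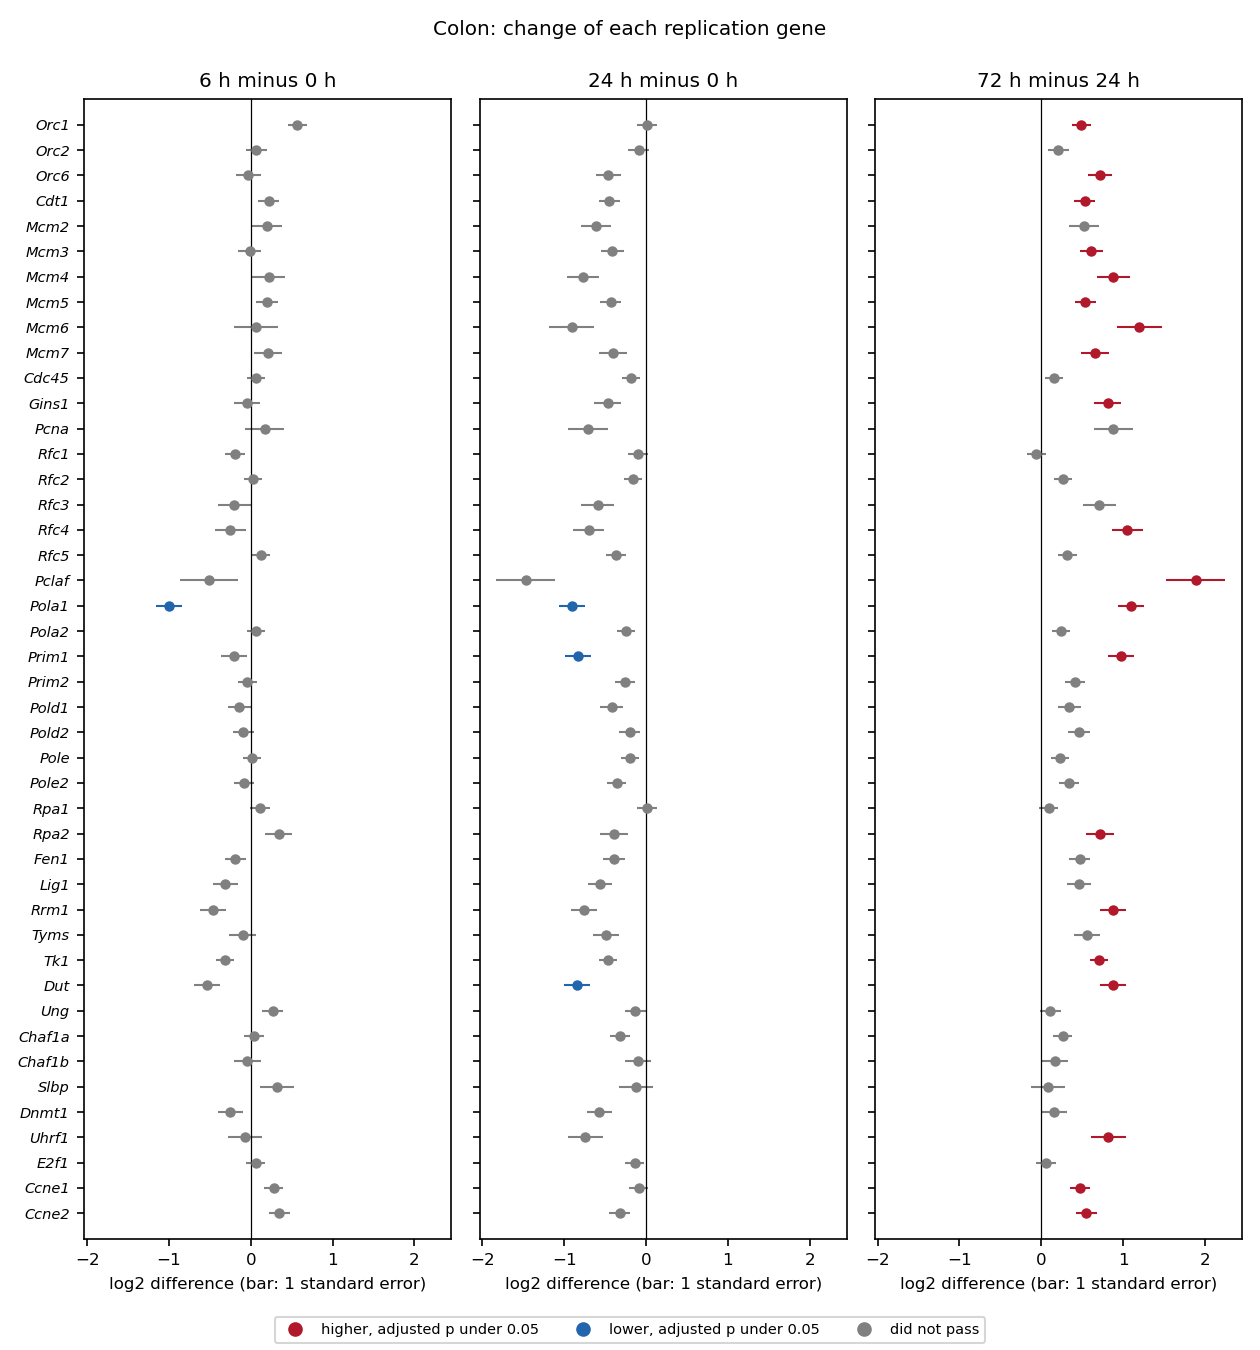
Points give each gene's log2 difference in the colon at 6 h and 24 h from 0 h and at 72 h from 24 h, with bars of 1 standard error and the colours of the test (red higher, blue lower, grey not passed). Nearly all points lie left of 0 at 24 h, 3 of them blue, and 20 are red at 72 h against 24 h.

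At 72 h no colon gene passed against 0 h with limma in either direction, against 1.32% of all probe sets, and 4 had an unadjusted p under 0.05, or 9.09%, below the 17.2% of all probe sets. Those nearest to passing were Orc1 (6.13 and 6.30, against 5.69 and 5.73 at 0 h; 0.51, adjusted p = 0.0768), Ccne1 (7.68 and 7.43, against 7.22 and 7.14 at 0 h; 0.38, adjusted p = 0.148) and Dnmt1 (8.24 and 8.09, against 8.45 and 8.70 at 0 h; -0.41, adjusted p = 0.203). Against 24 h, 20 of the 44 genes rose, or 45.5%, against 4.40% of all probe sets, and none fell, against 2.33%. Pola1 was 7.91 and 8.01 at 72 h, against 6.65 and 7.08 at 24 h (1.10 ± 0.16, adjusted p = 0.00802). Tk1 was 8.32 and 8.34 at 72 h, against 7.67 and 7.57 at 24 h (0.71 ± 0.11, adjusted p = 0.00802). These 2 genes were called whichever array was left out.

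Rrm1 was 9.40 and 9.28 in the 72 h colon, against 8.28 and 8.64 at 24 h (0.88 ± 0.16, adjusted p = 0.0134). Rfc4 was 9.08 and 8.98 at 72 h, against 7.63 and 8.32 at 24 h (1.05 ± 0.19, adjusted p = 0.0139). Pclaf, with the widest difference, was 10.41 and 10.12 at 72 h, against 7.67 and 9.08 at 24 h, 3.71-fold (1.89 ± 0.36, adjusted p = 0.0167). The 24 h arrays of Rfc4 and Pclaf were further apart than their 72 h arrays, and the groups of all 3 genes did not overlap. Prim1 (0.97), Dut (0.88) and Gins1 (0.81) complete the 8 smallest adjusted p, and 6 of the 8 helicase genes and 3 of the 4 licensing genes passed. Markers moved in this comparison too. The 6 macrophage markers were higher by a median of 0.90 (2 called; array medians of 8.26 and 8.53 at 72 h, against 6.89 and 7.93 at 24 h) and the 9 acinar genes by 2.85 (none called). The smooth muscle markers were lower (-0.42, 3 of 6 called), as were those of colonocytes (-1.0, 1 of 3 called), enterocytes (-1.54, 1 of 4 called) and stomach glands (-1.17, 1 of 6 called), and their part was not tested. The count was 3 without replicate 1 of 24 h, 3 without replicate 1 of 72 h, 12 without the 2 acinar-rich colon arrays, and 16 or 27 without replicate 2 of 72 h or of 24 h.

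No stomach gene passed at any time. With limma the counts were 0 of 44 at 1, 6, 24 and 72 h, against 0.0161%, 0.0322%, 0.0161% and 0.00644% of all probe sets, and 2, 7, 5 and 5 genes had an unadjusted p under 0.05. These are 4.55%, 15.9%, 11.4% and 11.4% of the genes, against 5.72%, 8.83%, 8.34% and 7.56% of all probe sets. At 6 h the smallest p were those of Rfc4, Dut and Rrm1. Rfc4 was 8.01 and 8.21, against 8.60 and 8.69 at 0 h (-0.54, adjusted p = 0.171). Dut was 9.26 and 9.45, against 9.97 and 9.89 at 0 h (-0.57, adjusted p = 0.295). Rrm1 was 7.75 and 8.13, against 8.63 and 8.54 at 0 h (-0.65, adjusted p = 0.299). In these 3 genes the 6 h arrays lay below both controls, as they did in 23 of the 44 genes, while 21.6% of all probe sets did so. Pclaf stood at -0.98 (adjusted p = 0.340) and Pola1 at -0.70 (adjusted p = 0.403).

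At 72 h 38 of the 44 stomach genes lay above 0 h on average, with a median of 0.12 against -0.04 over all probe sets. Chaf1a was 7.02 and 7.42, against 6.59 and 6.83 at 0 h (0.51, adjusted p = 0.656). Fen1 was 7.79 and 7.61, against 7.41 and 7.42 at 0 h (0.29, adjusted p = 0.656). Rpa2 was 7.86 and 7.93, against 7.51 and 7.68 at 0 h (0.30, adjusted p = 0.656). Their groups did not overlap, but 40 of the 44 genes lay above the 0 h mean on replicate 1 and 19 on replicate 2. The 5 squamous markers all lay higher than at 0 h, by a median of 1.14, none called. Their array medians were 7.82 and 11.24 at 72 h, against 7.26 and 9.87 at 0 h. The part of this shift was not tested. Against 24 h no gene passed either, against 0.00322% of all probe sets, and 14 had an unadjusted p under 0.05, or 31.8% against 15%. The last comparison uses both the acinar-rich array of the 72 h stomach and the 24 h stomach array with the wide GAPDH gap. Their part in it was not tested.

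**Figure D5:**
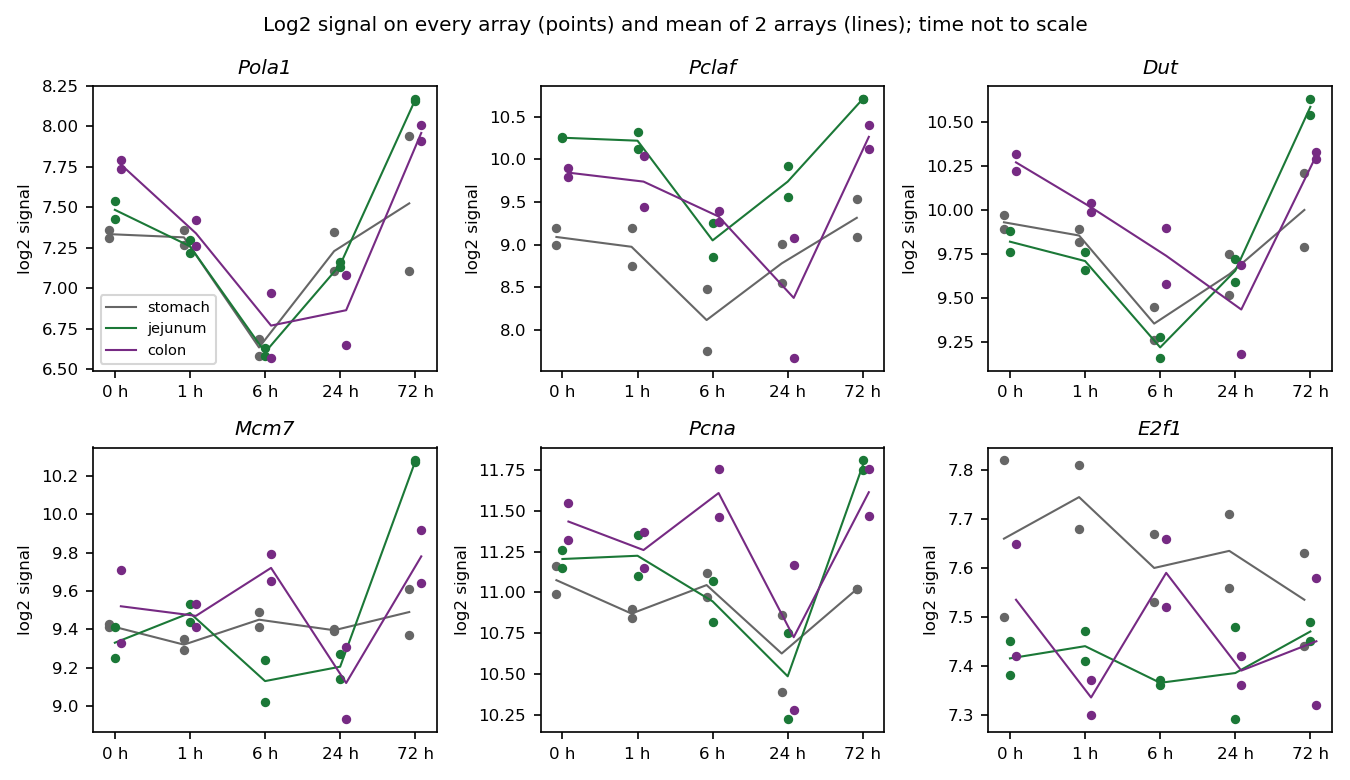
Log2 signal of 6 genes on every array (points) and the mean of 2 arrays (lines) by time after irinotecan, in stomach (grey), jejunum (green) and colon (purple); each gene has its own vertical scale. Pola1, Pclaf and Dut lie below 0 h at 6 h in each tissue and at 24 h in the colon, and E2f1 is 7.49 and 7.45 in the 72 h jejunum, against 7.45 and 7.38 at 0 h.

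The same genes were then compared between tissues. The difference of responses at 72 h, jejunum minus stomach, passed in 2 of the 44 genes, both positive, against 1.99% of all probe sets with a positive and 0.754% with a negative difference. Mcm7 changed by 0.95 in the jejunum and by 0.07 in the stomach, a difference of 0.87 (95% interval 0.48 to 1.27, adjusted p = 0.0198). Orc2 changed by 0.57 in the jejunum and by -0.14 in the stomach, a difference of 0.71 (0.33 to 1.09, adjusted p = 0.0360). The count of 2 ranged from 0 to 9 as single arrays were left out, with 9 without the acinar-rich replicate 1 of the 72 h stomach, 1 without stomach replicate 2 of 0 h or of 72 h or jejunum replicate 1 of 0 h, and 0 without each of the other 4 arrays. Jejunum minus colon at 72 h was positive in all 44 genes (median 0.41) without a call, against 0.886% of all probe sets, with 19 genes at an unadjusted p under 0.05, or 43.2% against 18.1%. Rpa1 came nearest, at 0.92 (0.44 to 1.40, adjusted p = 0.0571), and Mcm4 had the widest difference, 1.14 (0.52 to 1.77, adjusted p = 0.0701). At 24 h the same difference was positive in 41 genes (median 0.32), with 0 calls against 0.164% of all probe sets and 13 at an unadjusted p under 0.05, or 29.5% against 13.6%.

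At 6 h no difference between the tissues' responses passed. The calls were 0 for jejunum minus colon, against 0.393% of all probe sets, 0 for jejunum minus stomach, against 0.110%, and 0 for colon minus stomach, against 0.0129%. An unadjusted p under 0.05 was found in 6, 3 and 3 genes, or 13.6%, 6.82% and 6.82%, against 17.1%, 11.2% and 5.62% of all probe sets. The 6 h change of Pola1 was -0.88 in jejunum, -1.0 in colon and -0.70 in stomach, of which the jejunum and colon values passed. Pola1 also has the longest gene span of the 44, 314 kb, and Prim2 follows with 212 kb. Over the 44 genes, which share the same arrays, Spearman's rho between gene span and the 6 h change was -0.29 in colon, 0.03 in jejunum and -0.07 in stomach.

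The tissues were also compared before treatment. At 0 h 12 genes were higher and 1 lower in jejunum than in stomach, or 27.3% and 2.27%, against 14.9% and 17.3% of all probe sets. Cdc45 was 8.11 and 8.13 in jejunum, against 7.53 and 7.42 in stomach (0.65 ± 0.097, adjusted p = 3.53e-05), and Pclaf 10.25 and 10.26, against 9.19 and 8.99 in stomach (1.17 ± 0.33, adjusted p = 0.0101). Neither gene's groups overlapped, and the 1 gene lower in jejunum was Orc2 (-0.41). In colon against stomach 17 genes were higher, or 38.6%, and none lower, against 15.1% and 18% of all probe sets. Dnmt1 was 8.45 and 8.70 in colon, against 7.78 and 7.72 in stomach (0.83 ± 0.15, adjusted p = 0.000462). In jejunum against colon none was higher and 8 were lower, or 18.2%, against 25.8% and 19.9% of all probe sets, so the share lower is near that of all probe sets. Rpa1 was 7.89 and 7.92 in jejunum, against 8.80 and 8.59 in colon (-0.79 ± 0.16, adjusted p = 0.000681). Leaving out 1 array at a time gave 5 to 10 calls for jejunum against stomach, 2 to 4 for jejunum against colon and 8 to 14 for colon against stomach.

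A wider list of 60 replication genes, of which 51 were measured, covered E2F control, further licensing and firing factors, fork proteins, nucleotide enzymes and histone chaperones. In the 72 h jejunum 20 of the 51 rose, or 39.2%, and none fell, against 11.9% and 12% of all probe sets, with a median of 0.33 against -0.07 over all probe sets. The smallest adjusted p were those of Hells, a chromatin remodeller (1.03, adjusted p = 0.000884), Ccna2, the S phase cyclin A2 (1.21, adjusted p = 0.000911), Asf1b, a histone chaperone (0.58, adjusted p = 0.00444), Hat1, a histone acetyltransferase (0.56, adjusted p = 0.00485), and Tfdp1, the partner of E2F factors (0.83, adjusted p = 0.00538). At 6 h none rose in the jejunum and 3 fell, or 5.88%, against 2.30% and 1.19% of all probe sets: Ccna2 (-0.75), the RNase H2 subunit Rnaseh2b (-0.50) and Hat1 (-0.47). In the colon Ccna2 fell at 6 h (-1.48, adjusted p = 0.0035) and at 24 h (-1.59, adjusted p = 0.00355), with Tfdp2 (-0.60) at 6 h and the repressor E2f8 (-0.74) at 24 h as the only others to pass (2 of 51 fell each time, or 3.92%, against 0.986% of all probe sets at 6 h and 0.854% at 24 h). Tfdp2 was also lower at 72 h (-0.81) and was the 1 gene of the 51 called in that comparison. This is 1.96%, against 1.32% of all probe sets called in either direction. At 72 h against 24 h 24 of the 51 rose and 1 fell in the jejunum, or 47.1% and 1.96%, against 8.77% and 4.15% of all probe sets. In the colon 16 rose and 1 fell, or 31.4% and 1.96%, against 4.40% and 2.33%. No gene of this list passed in the stomach at any time against 0 h.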

How the data were processed

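RNA of whole stomach, jejunum and colon was measured on 30 Affymetrix Rat 230 2.0 arrays, 2 pools of 3 rats for each of 15 groups. The authors deposited 1 table of log2 values, normalized by RMA per the submitters' processing notes; the sources used here do not state its version. RMA equalises the arrays' distributions, so a shift shared by all genes would not be seen. The number of arrays limits the precision.

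From the deposited log2 values, 57 control probe sets were removed and 31042 tested with limma 3.58.1 in R 4.3.3 (lmFit, eBayes), 1 fit of 10 arrays per tissue, and 1 fit of all 30 arrays for differences between tissues. P-values were adjusted by Benjamini-Hochberg over all probe sets, with a threshold of 0.05, and 24 comparisons were made. The fits were tested on simulated data. Every measured gene of the list could be named, per-array values were given for at most 8 genes a comparison (the smallest adjusted p among those that passed, or the 3 smallest p where none did), and at most 5 genes of the wider list were named per comparison. Outside this rule, array values were also given for Rpa1 and E2f1 in the 72 h jejunum and for Pclaf in the 24 h colon. The genes, lists and rules were chosen with earlier results of these data known. Alternatives were the removal of dim probe sets, quantile normalization, a replicate block, 1 fit of all arrays, trended and robust variances, the mean of a gene's probe sets, and the removal of arrays with a GAPDH gap over 0.5 or of single arrays. The removal of arrays high in acinar genes was chosen after seeing the data.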

Additional observations from a re-analysis of the deposited data

Results flagged for a closer look

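The difference in 72 h response between jejunum and stomach passed in 2 of the 44 replication genes, or 4.55%. Of all probe sets 1.99% passed with a positive difference. This was a test of the difference itself, limma's interaction term. The change of Mcm7 was larger in the jejunum by 0.87 (adjusted p = 0.0198), and that of Orc2 by 0.71 (adjusted p = 0.0360), on the log2 scale with 2 pools per group. Both calls depended on single arrays, and the count fell under quantile normalization. The median difference of the 44 genes from 0 h was 0.28 on replicate 1 of the 72 h stomach and -0.04 on replicate 2.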

How the results depend on the processing

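No called count or called gene value changed sign under the alternatives run, although single other probe sets of Ccne2, Dut and Tk1 had the opposite sign in the 72 h jejunum. Over the named genes, 1648 gene and setting combinations kept their side of the threshold, 319 lost a call and 8 gained one. The labels do not say whether equal replicate numbers mark the same rats. Same-numbered deviations correlated at -0.22 to 0.50 over tissues at 1 time, above 0.1 in 5 of 15 pairs. All 3 pairs at 24 h were among these (0.50, 0.32 and 0.36). Over different times within 1 tissue, where pools cannot share rats, they correlated at -0.58 to 0.43, above 0.1 in 10 of 30 pairs. With ranges this wide in both, the correlations cannot decide whether the numbers mark pairs. The numbers were not taken as pairs in the main fits. In the fits per tissue the replicate block was a term for the replicate number, which ties pools of different rats across times. With it the calls were 4 for the 6 h jejunum (7 without the block), 2 for the 6 h colon (1) and 5 for the 24 h colon (3). In the fit of all arrays the block was instead a correlation of arrays with the same time and number (0.081). It gave 2 calls for jejunum minus colon at 72 h (0 without the block). One fit of all 30 arrays gave 9 calls for the 24 h colon and 2 for the 6 h colon, and trend and robust variances gave 2 for the 6 h colon. Leaving out arrays with a wide GAPDH gap gave 13 for the 6 h jejunum and 3 for jejunum minus colon at 72 h. Leaving out arrays high in acinar genes gave 0 for the 6 h colon and 12 for the colon at 72 h against 24 h. Quantile normalization gave 1 for jejunum minus stomach at 72 h, and dropping dim probe sets gave 1 for jejunum minus colon at 72 h. Leaving out 1 array at a time gave 1 to 1 calls for the 6 h, 0 to 10 for the 24 h and 13 to 20 for the 72 h jejunum, 19 to 37 for the jejunum at 72 h against 24 h, 0 to 1 for the 6 h and 0 to 11 for the 24 h colon, 3 to 27 for the colon at 72 h against 24 h, 0 to 1 for jejunum minus colon at 24 h and 0 to 9 for jejunum minus stomach at 72 h. At 0 h it gave 5 to 10 for jejunum against stomach, 2 to 4 for jejunum against colon and 8 to 14 for colon against stomach. The cause of these shifts was not tested, beyond the fewer samples in the fits without an array.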
